A study of Mus musculus with 2 samples.

Results

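Lysosomal enzymes and the proton pump that acidifies the organelle were described in wild-type mouse B cells, sorted by flow cytometry from spleen as positive for surface IgM and IgD. The wild-type group, which carries no genetic modification per the labels, comprised 2 samples with 1 array each. The study set such cells against B cells lacking serum response factor (SRF), which were not analysed here. The labels give no strain, age or number of animals, and separate mice are not stated, so the spread between them may be technical. Replicates 1 and 2 were numbered in accession order. The genes were 33 named members of the lysosome, taken wherever a probe set of the array was annotated to that symbol alone. This held for 32 of them, of 12393 genes measured, by 63 probe sets. Atp6v0c, the gene of the main proteolipid of the pump's membrane ring, had no such probe set and has no value here.

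Lysosomes are acidic organelles in which proteases, glycosidases, lipases and other hydrolases degrade material from endocytosis and autophagy. Their acidity comes from the vacuolar ATPase (V-ATPase), whose peripheral V1 part hydrolyses ATP and turns a rotor that drives protons through the membrane-embedded V0 part. In B cells the same compartment also processes antigen taken up by the B cell receptor for loading onto MHC class II. Many lysosomal promoters carry an E-box motif, called CLEAR, that is bound by the transcription factor TFEB and its relatives.

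Signals are MAS5 intensities on a linear scale that the authors had scaled to the same trimmed mean on each array. A floor was set on each array at the 90th percentile of 95 probe sets for 66 genes specific to other organs, such as liver, brain or testis, which gave 199 on replicate 1 and 85.4 on replicate 2. A gene was called above the floor if at least 1 of its probe sets exceeded it on both arrays. A gene with several probe sets is represented by the one brightest on average over the arrays, on the log2 scale. Each difference between the samples is replicate 2 minus replicate 1 in log2 signal. With 1 group of 2 samples no test was possible. The pooled SD of log2 signal over all probe sets above the floor was 0.68, or 1.60-fold. Signals of different genes were not compared with each other, because probes differ in affinity.

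The arrays differed in ways that touch every value below. Over all gene probe sets the median was 103 for replicate 1 and 66.6 for replicate 2. Probe sets over the array's own floor made up 25.2% on replicate 1 and 42.8% on replicate 2. The ratio of 3′ to 5′ signal of the control mRNA Actb was 3.57 on replicate 1 and 8.15 on replicate 2, and that of Gapdh was 1.31 and 9.65, the last with the 5′ signal set to the floor. Of 11 B cell markers, 10 were above the floor on both arrays, against 26.5% of all genes. The exception was Pax5, named after its values were seen, with 21.5 and 15.6. The markers of other cells gave 2 of 19 for monocytes and macrophages, 2 of 7 for neutrophils and 0 of 5 for dendritic cells. They gave 2 of 6 for plasma cells and 1 of 10 for T cells. The neutrophil and plasma cell shares, 28.6% and 33.3%, were near that of all genes, and the others were below it. Macrophages are rich in lysosomes, and their part in the lysosomal signals was not tested. Their markers above the floor were Csf1r, with 286 on replicate 1 and 249 on replicate 2, and Lyz2, named after its values were seen, with 291 and 178. The summed signal of the 19 markers was 1852 on replicate 1 and 1672 on replicate 2. None was at 0, a value that does not occur in the table. By array, 2 of the 19 exceeded the floor of replicate 1, against 31.6% of all genes, and 6 that of replicate 2, against 49.9%. Of the 19, 13 exceeded neither. Those over the floor of replicate 2 alone were Lyz1, with 128.5 and 516, and, named after their values were seen, C1qb, with 16.5 and 137, Mpeg1, with 38.0 and 93.2, and Ccr2, with 163 and 89.5.

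Most of the lysosomal genes were detected in both samples. Of the 32, 22 were above the floor on both arrays, or 68.8%, against 26.5% of all 12393 genes. By class these were 10 of 12 V-ATPase genes, 4 of 6 cathepsins, 5 of 9 other hydrolases, both soluble helpers of lipid degradation and 1 of 3 membrane proteins. Of the remaining genes, 6 exceeded the floor on replicate 2 only, 1 on replicate 1 only and 3 on neither. Most of the genes not called thus missed the floor on replicate 1, where it was higher. Genes with several probe sets have more chances to pass. Among genes with 1 probe set, 9 of 14 lysosomal genes were above the floor, against 18.5% of all such genes. Among genes with 2 or more it was 13 of 18, against 38.6%. The members were chosen with earlier results of these arrays known, so the share is a description.

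**Figure D1:**
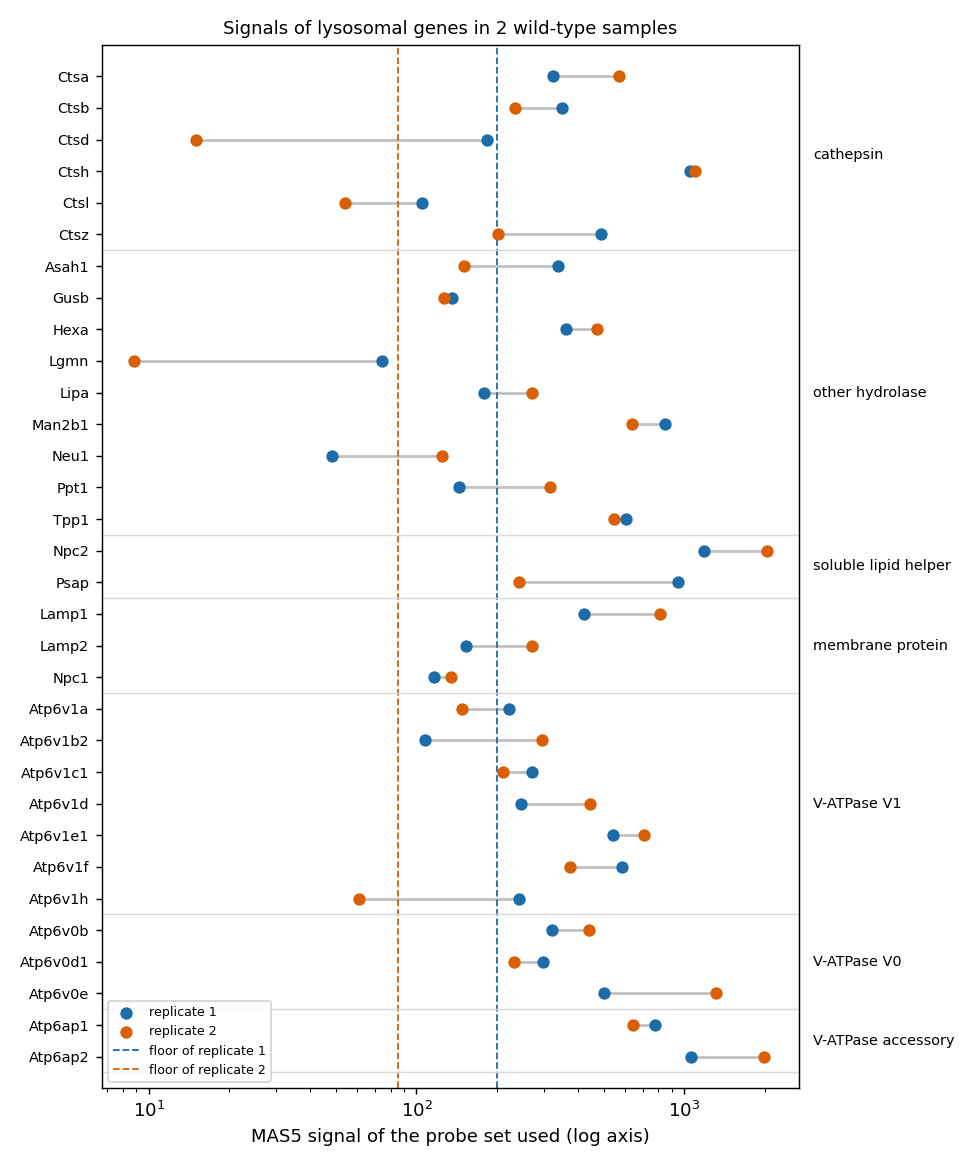
Signals of the 32 lysosomal genes on the 2 wild-type arrays, each by the probe set that represents the gene, on a log axis. Blue and orange points are replicates 1 and 2 and the dashed lines are their floors at 199 and 85.4. V-ATPase genes lie mostly to the right of both lines, while Ctsd, Ctsl and Lgmn lie left of each array's own line.

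**Figure D2:**
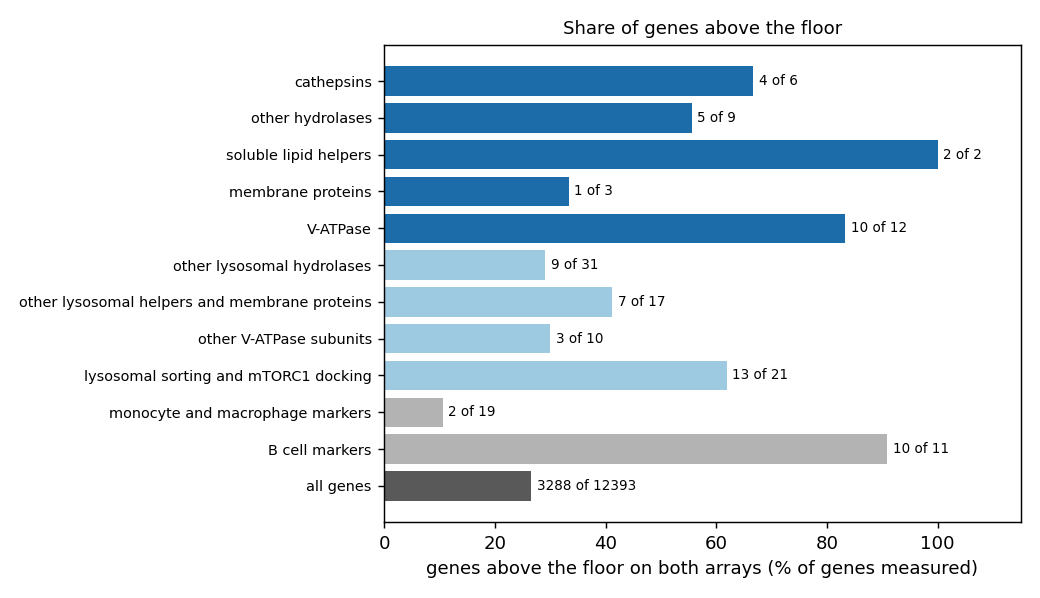
Percent of measured genes above the floor on both arrays, by class of lysosomal gene (dark blue), for other lysosomal lists (light blue), for marker lists (grey) and for all genes (dark grey), with counts beside the bars. V-ATPase genes reached 10 of 12 and all genes 3288 of 12393.

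The promoters of these genes were searched for the CLEAR-type E-box. RefSeq promoter windows of 300 bases (GRCm38.p6), from 250 bases before the gene start to 50 after, were matched by symbol for 26 of the 33 genes. The E-box core CACGTG was present in 9 of 26, or 34.6%, against 8.09% of all 27025 genes with a window, 13.3% of the 2708 of them above the floor on both arrays and 24.1% of 58 other lysosomal genes. The longer match TCACGTG, read on either strand and containing the core, was present in 8 of 26, or 30.8%. It occurred in 4.29% of all genes, in 8.31% of those above the floor, and in 12 of the 58 other lysosomal genes, or 20.7%. The palindrome TCACGTGA was present in 5 of 26, against 1.12% of all genes. The CArG box, the motif of SRF, was present in 0 of 26, against 1.81% of all. A match describes the letters in the window and not binding, and these arrays measured no factor at a promoter.

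The sequences holding TCACGTG are printed to show the match, which 8 genes hold and 18 do not, with the CACGTG core in capitals. For Lamp1 the 100 bases before the gene start are given, and for the others 30 bases around the core nearest to the start on its upstream side, where there is one. All read 5′ to 3′ on the strand of the gene, in GRCm38.p6.
Lamp1, chr8:13159061-13159160, plus strand: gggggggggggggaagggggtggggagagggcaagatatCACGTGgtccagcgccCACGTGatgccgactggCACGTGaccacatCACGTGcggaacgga
Ctsa, chr2:164833749-164833778, plus strand: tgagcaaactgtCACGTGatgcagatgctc
Ctsd, chr7:142387908-142387937, minus strand: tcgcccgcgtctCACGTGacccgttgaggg
Lgmn, chr12:102439124-102439153, minus strand: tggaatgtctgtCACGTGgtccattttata
Atp6v1a, chr16:44139373-44139402, minus strand: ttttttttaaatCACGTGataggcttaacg
Atp6v0b, chr4:117887330-117887359, minus strand: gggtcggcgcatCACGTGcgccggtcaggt
Atp6v0d1, chr8:105566050-105566079, minus strand: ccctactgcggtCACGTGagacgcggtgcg
Atp6v0e, chr17:26676387-26676416, plus strand: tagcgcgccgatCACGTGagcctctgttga
Lamp1 held 4 cores, whose first bases lay 61, 45, 28 and 15 bases before the gene start. Ctsa, Ctsd and Atp6v0b held 2 each. Of the 8 genes, 6 passed the floor on both arrays, as did 12 of the 17 other measured genes with a window. Of all 12393 genes 26.5% did.

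**Figure D3:**
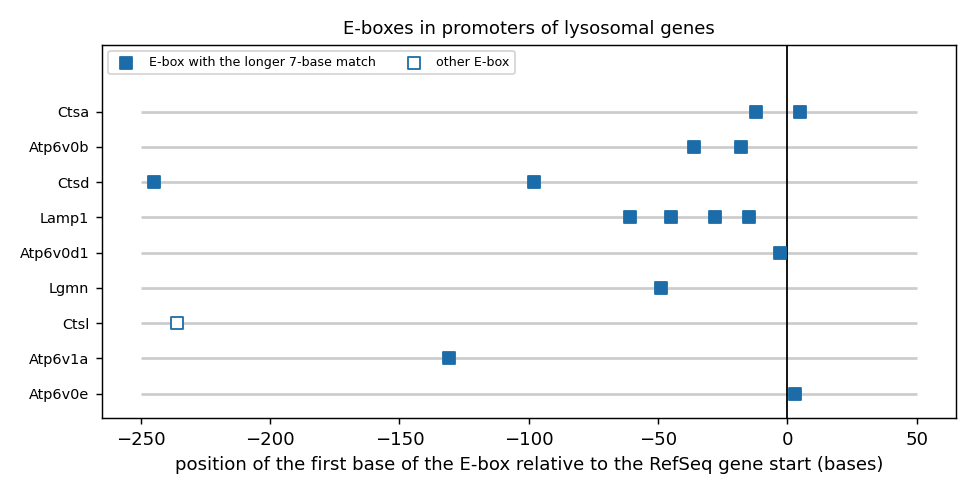
Position of every E-box core in the promoter windows of the 9 lysosomal genes that hold one, in bases from the RefSeq gene start. Filled squares are cores within the longer match and the open square, in Ctsl, is a core outside it. The 4 cores of Lamp1 lie within 61 bases of the start.

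Cathepsins were split between genes detected in both samples and genes near background. Ctsh, a cysteine protease with aminopeptidase activity, gave 1047 on replicate 1 and 1099 on replicate 2, or 1073 ± 36.6 (SD, n = 2). Ctsa, the serine carboxypeptidase that protects β-galactosidase and neuraminidase, had 322 and 569, or 445 ± 174 (SD, n = 2). On the deposited scale Ctsh thus differed little between the samples, and Ctsa was 1.76-fold higher on replicate 2. The log2 difference of Ctsh was 0.07, against -0.57 after quantile normalization and 0.70 after median centring. That of Ctsa was 0.82, against 0.63 and 1.45. Ctsb, a cysteine protease, gave 349.6 and 234 by the probe set used, or 292 ± 81.8 (SD, n = 2). Its 3 other probe sets were not above the floor on both arrays, with 219 and 4.2, 88.8 and 14.0, and 9.7 and 50.6. The detection of Ctsb therefore rests on 1 of 4 probe sets.

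Ctsz, a carboxypeptidase of the same papain family, was above the floor by all of its 3 probe sets. These gave 487 and 202, 492 and 131, and 297 and 137 on replicates 1 and 2. Each was over 2-fold higher on replicate 1, by 2.41-fold for the probe set used. The difference was -1.27 on the log2 scale, -1.39 after quantile normalization and -0.64 after centring on the array median. Ctsd, the main aspartic protease of the lysosome, had 183 and 15.0, both below the floors. Ctsl, a cysteine endopeptidase, had 105 and 53.9, also below both. A single probe set measured each of them.

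Among the other hydrolases, the glycosidase and peptidase genes with signals well over the floor were close on both arrays on the deposited scale. Man2b1, the lysosomal α-mannosidase, gave 843 and 638, or 741 ± 145 (SD, n = 2). Tpp1, a tripeptidyl peptidase, gave 604 and 545, or 574 ± 41.7 (SD, n = 2). Hexa, the α subunit of β-hexosaminidase, which degrades GM2 ganglioside, gave 363 and 472, or 418 ± 77.5 (SD, n = 2). These 3 differed by at most 1.32-fold on the deposited scale. The log2 differences of Man2b1, Tpp1 and Hexa were -0.89, -0.57 and 0.16 after quantile normalization. After median centring they were 0.23, 0.48 and 1.01. A second probe set of Man2b1, with 161 and 127, and one of Tpp1 exceeded the floor of replicate 2 but not of replicate 1.

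Asah1 and Ppt1 had larger differences by the probe set used. Asah1, acid ceramidase, gave 338 and 150.4, or 244 ± 132 (SD, n = 2), and was 2.24-fold higher on replicate 1. The log2 difference of Asah1 was -1.17, against -1.06 after quantile normalization and -0.53 after median centring. Ppt1, a thioesterase that removes palmitate from proteins, had 2 probe sets that disagreed. The one used gave 144 and 316 and was below the floor on replicate 1, and the other, above both floors, gave 225 and 134. The sign of the Ppt1 difference thus depends on the probe set, at 1.14 by the first and -0.75 by the second.

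Lipa, the acid lipase for cholesteryl esters and triglycerides, gave 178 and 269 by the probe set used. Its other probe sets, with 170.4 and 159.4, and 78.6 and 49.9, were lower on replicate 2. Gusb, β-glucuronidase, gave 135 and 127, and a second probe set, with 43.1 and 13.9, was below both floors. Neu1, a sialidase, gave 48.4 and 125. All 3 genes were above the floor on replicate 2 only. The other 2 probe sets of Neu1 were lower on replicate 2, with 126 and 3.5, and 48.7 and 7.2. Lgmn, the asparaginyl endopeptidase that trims cathepsins and antigen, had 74.6 and 8.8, below both floors.

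Both soluble helpers of lipid degradation were above the floor. Psap, the precursor of the saposins that present sphingolipids to their hydrolases, gave 948 on replicate 1 and 242 on replicate 2, or 595 ± 499.5 (SD, n = 2). On the deposited scale it was 3.93-fold higher on replicate 1, the widest gap among the 22 genes above the floor. Its second probe set, with 339 and 64.0, went the same way but was below the floor on replicate 2. The log2 difference of Psap was -1.97, against -2.28 after quantile normalization and -1.34 after median centring. With median centring the widest gap was that of Atp6v0e, 2.02. Npc2, which carries cholesterol to the membrane protein Npc1, gave 1179 and 2039.7, or 1609 ± 609 (SD, n = 2). Its second probe set, above both floors, gave 467 and 522. By the probe set used Npc2 was 1.73-fold higher on replicate 2, and the log2 difference of 0.79 became 0.095 after quantile normalization.

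Of the membrane proteins only Lamp1 was above the floor on both arrays. Lamp1, an abundant glycoprotein of the limiting membrane, whose promoter holds the cluster of E-boxes printed with its sequence, gave 422 and 813, or 617 ± 276 (SD, n = 2). On the deposited scale it was 1.93-fold higher on replicate 2. Its log2 difference of 0.95 became 0.57 after quantile normalization and 1.58 after median centring. Lamp2, its relative with a role in autophagy, gave 153 and 271. The 3 other probe sets of Lamp2 gave 126 and 101, 87.3 and 434, and 36.0 and 25.4, so no probe set of Lamp2 was above the floor on replicate 1. Npc1, the cholesterol exporter, gave 117 and 135 and exceeded only the floor of replicate 2.

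The V1 part of the proton pump was represented by 7 genes, of which 5 were above the floor. Atp6v1e1, a stator subunit, gave 542 and 709, or 625 ± 118 (SD, n = 2). Atp6v1f, a rotor subunit, gave 584 and 376, or 480.0 ± 148 (SD, n = 2). Atp6v1d, the central rotor shaft, gave 246 and 444, and its 2 other probe sets, also above the floor, gave 218 and 332, and 253 and 239. Atp6v1c1, which links the V1 and V0 parts, gave 271 and 209.9, and its remaining probe sets, which missed the floor of replicate 1, pointed the other way, with 139 and 182, and 112 and 148. Atp6v1a, the catalytic subunit, gave 221 and 148, with a second probe set of 138 and 140.2. All 5 lay within 2-fold between the arrays.

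For the other V1 genes the arrays did not match. Atp6v1b2, the B subunit of the catalytic head, gave 107 and 293, exceeding only the floor of replicate 2. Its other probe sets gave 76.7 and 12.1, and 40.4 and 27.2, lower on replicate 2. Atp6v1h, a regulatory subunit, gave 241 and 60.8, exceeding only the floor of replicate 1. Atp6v1e1 had 2 further probe sets, with 31.7 and 307, and 9.4 and 148, which were far below the floor on replicate 1.

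The 3 measured V0 genes and both accessory genes were all above the floor. Atp6v0e, a small membrane subunit, gave 502.5 on replicate 1 and 1313 on replicate 2, or 908 ± 573 (SD, n = 2). Its single probe set was 2.61-fold higher on replicate 2, and its log2 difference of 1.39 became 0.90 after quantile normalization and 2.02 after median centring. Atp6v0d1, which joins the rotor to the membrane ring, gave 296 and 231, or 263 ± 45.7 (SD, n = 2). Atp6v0b, a proteolipid of the ring, gave 319.9 and 441 by a probe set of the class ending in _x_at, which can cross-hybridize. Its other probe sets gave 328 and 26.0, and 175 and 62.6, both below the floor on replicate 2.

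The accessory proteins help to assemble the pump. Atp6ap1 gave 779 and 642, or 710.4 ± 97.2 (SD, n = 2). Atp6ap2, also known as the prorenin receptor, gave 1056 and 1988, or 1522 ± 659 (SD, n = 2). A second Atp6ap2 probe set gave 916 and 1928. Both end in _x_at, and the third, with 175 and 236, was below the floor on replicate 1. Atp6v0b and Atp6ap2 thus count as above the floor only through probe sets ending in _x_at. The log2 difference of Atp6ap2 was 0.91, against 0.23 after quantile normalization and 1.55 after median centring.

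Across the 22 genes above the floor, the difference between the samples had no common direction on the deposited scale. Of these, 11 were higher on replicate 2 and 11 on replicate 1, with a median of -0.04 on the log2 scale, against 0.0013 over all 3288 genes above the floor. In all 17 lay within 2-fold. Those over 2-fold higher on replicate 2 were Atp6v0e and Ppt1, or 2 of 22, against 15.1% of all genes above the floor. The probe set used for Ppt1 was below the floor of replicate 1, and the one above both floors was lower on replicate 2. Those over 2-fold higher on replicate 1 were Psap, Ctsz and Asah1, or 3 of 22, against 15.1%. Both shares are near those of all genes. The median was 0.05 over the 10 V-ATPase genes and -0.04 over the 12 others. The medians of the V-ATPase genes and the others were 0.39 and -0.15 with a 95th-percentile floor, and -0.18 and -0.57 after quantile normalization. After median centring, which moved the median of all genes above the floor to 0.63, 7 of the 22 differences changed sign and the median over the lysosomal genes was 0.59.

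**Figure D4:**
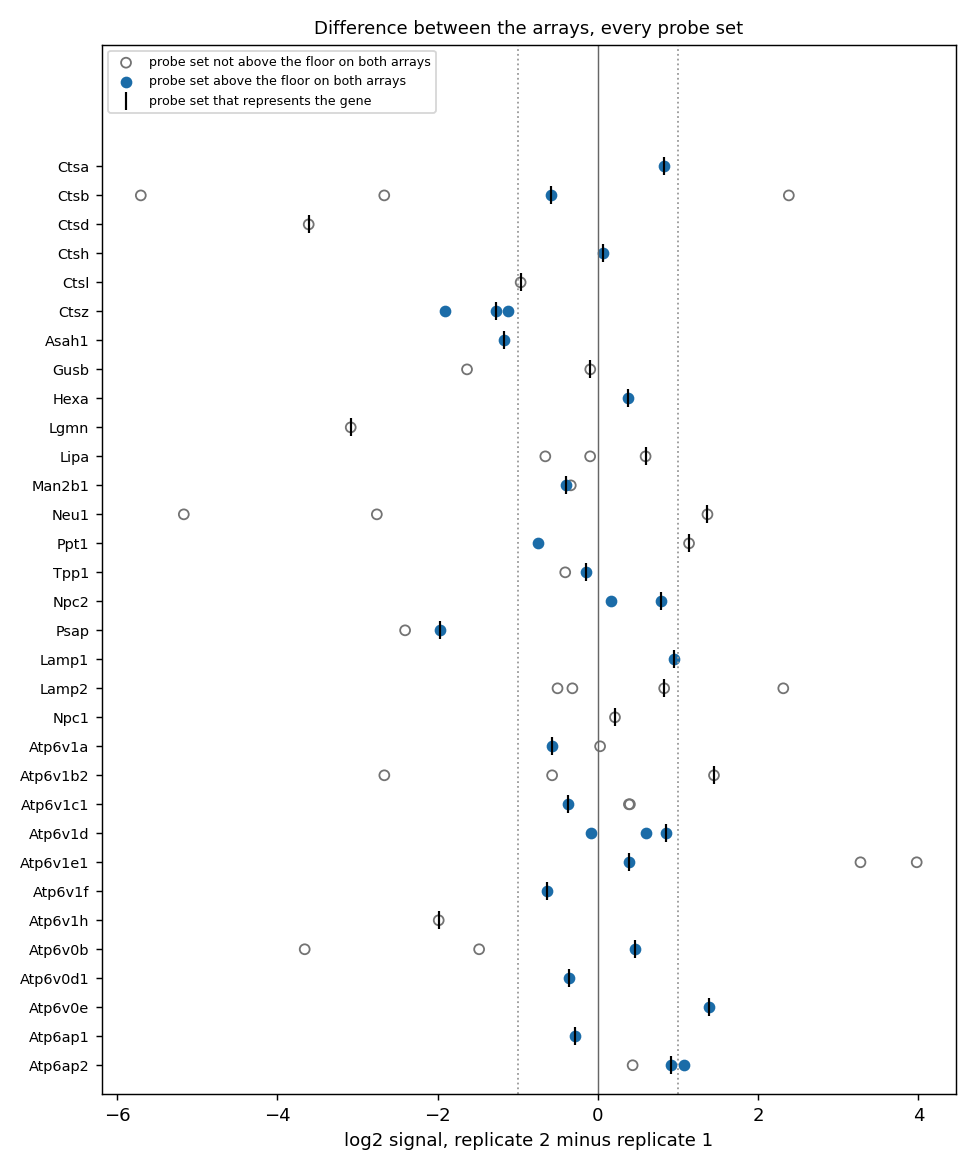
Log2 signal of replicate 2 minus replicate 1 for all 63 probe sets of the lysosomal genes. Filled points were above the floor on both arrays, open points were not, and a vertical tick marks the probe set that represents the gene. Dotted lines stand at 2-fold. The filled points lie between -1.97 and 1.39, and the open points spread from -5.70 to 3.98.

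Probe sets of one gene often disagreed on the direction. Of 18 lysosomal genes with several probe sets, all pointed one way in 8 and opposed each other in 10, while over all 4956 such genes on the array they pointed one way in 42.1%. Of the 63 probe sets, 28 passed the floor on both arrays and 13 on neither. On the deposited scale, over 2-fold differences borne out by every probe set of a gene with several, and by at least 1 above the floor, were seen for Psap and Ctsz.

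Lysosomal genes outside the 33 were examined as separate lists. Of 31 other hydrolases measured, 9 were above the floor on both arrays, or 29.0%, near the 26.5% of all genes. They included Ctss, the cysteine protease that degrades the invariant chain in B cells, with 3312 on replicate 1 and 4897 on replicate 2. Ctse, an aspartic protease of endosomes, gave 2022 and 2192, and a second probe set, with 94.6 and 53.5, was below both floors. Ctsc, which activates serine proteases of granules, gave 587 and 2239, and was the 1 gene of this list over 2-fold higher on replicate 2. Acp5, a phosphatase, gave 632 and 419. Arsa, which desulphates sulphatide, gave 312 and 134 and was the 1 over 2-fold higher on replicate 1. The aspartic and cysteine proteases Ctse and Ctss were thus above the floor while Ctsd and Ctsl were not, each by the probe set used.

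Helpers and membrane proteins outside the 33 passed the floor in 7 of 17 cases, or 41.2%, against 26.5% of all genes. Laptm5, a lysosomal membrane protein of haematopoietic cells, gave 1343 and 5729, and its 2 other probe sets, with 924 and 2282, and 372 and 929, were also over 2-fold higher on replicate 2. Gm2a, the activator of β-hexosaminidase, gave 803 and 889, and a second probe set, with 158 and 14.7, was below both floors. Scarb2, a receptor for glucocerebrosidase, gave 332 and 396, and a second probe set, with 196 and 151, passed on replicate 2 only. Laptm4a, with 684 and 280.1, Clcn7, a chloride-proton exchanger, with 295 and 129, and Slc11a2, an iron transporter, with 221 and 95.2, were over 2-fold higher on replicate 1. Below both floors were a second probe set of Clcn7, with 151.5 and 72.6, and the others of Slc11a2, with 169.8 and 4, and 152 and 7.5.

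Of 10 other V-ATPase genes, 3 were above the floor, a share near the 26.5% of all genes. Tcirg1, the a3 subunit of V0, gave 398 and 353, and Atp6v0a1, the a1 subunit, 295 and 156. The remaining probe sets of Atp6v0a1, with 168 and 27, 138 and 11.3, and 65.5 and 18.4, were below both floors. Atp6v1g1, a stator subunit, gave 154 and 675 by the probe set used, while another, above both floors, gave 364 and 223. The direction for Atp6v1g1 thus depends on the probe set.

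Genes for sorting enzymes to lysosomes and for docking mTORC1 on their surface passed the floor in 13 of 21 cases, or 61.9%, against 26.5% of all genes. Gga2, an adaptor for sorting receptors, gave 917 and 1290.4, and Lamtor1, the membrane anchor of the Ragulator complex, 851 and 1199. Vps41, of the HOPS tethering complex, gave 340 and 661 by the probe set used. Its other probe sets, also above both floors, gave 247.5 and 361.5, and 215.7 and 166.5, so the direction depends on the probe set. Lamtor5 gave 621 and 361 by the probe set used. Another of its probe sets, above both floors, gave 205 and 279, in the opposite direction. Lamtor3, with 234 and 889.5, was over 2-fold higher on replicate 2, and the GTPase gene Rraga, with 334 and 138, on replicate 1.

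Of the regulators that bind CLEAR-type E-boxes or repress these genes, 1 of 6 was above the floor on both arrays. The share was 16.7%, against 26.5% of all genes. The regulator that passed was Usf2, with 554 and 121 by the probe set used and 194 and 222 by another. Tfeb gave 131 and 189.7 and the repressor gene Zkscan3 147 and 243, each above the floor on replicate 2 only. Usf1, with 239 and 62.4, exceeded only the floor of replicate 1. Mitf, with 145 and 9.4, and Tfec, with 6.5 and 11.3, were below it on both.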

How the data were processed

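The members and gene lists were chosen with earlier results of these arrays known. Biotinylated cRNA was made from total RNA by the array maker's procedure, per the labels' protocols. The authors computed the deposited values, linear intensities, with MAS5 per the submitters' processing notes, without version or parameters. Detection calls were not used, and precision is limited by the number of arrays. Of 22690 rows, 64 control probe sets were left out. Of the other 22626, 20380 named 1 gene in the platform annotation, 691 named several and 1555 were unnamed here.

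Floors, differences and class counts were computed with Python 3.11.15, numpy 2.4.6 and pandas 2.3.3, and figures with matplotlib 3.10.9. The choice of probe set, the fold difference, the floor rule and quantile normalization were tested on made-up values. The simulated noise was smaller than the pooled SD of 0.68 seen here, and the fold calls were scored with no floor. Promoter searches and class counts were not tested in this way. All 33 members are named, and of each other list the 4 brightest genes above the floor, those over 2-fold apart and all regulators. Of each marker list, the rule allowed 2 genes, and further ones are marked as named after their values were seen. The alternatives were a 95th-percentile floor, the array median as floor, no floor, quantile normalization, median centring, a pseudocount of 32, omission of _x_at probe sets, means over probe sets, and each array alone. Promoter sequences are RefSeq's, from GRCm38.p6.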

Additional observations from a re-analysis of the deposited data

How the results depend on the processing

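The count of lysosomal genes above the floor on both arrays, 22 of 32, ranged from 20 to 32 under the alternatives that keep both arrays. It was 20 with the 95th-percentile floor and without probe sets ending in _x_at, 27 with the array median as floor and 32, all measured genes, with no floor. Of all genes, 21.1% passed the 95th-percentile floor, 25.8% passed without probe sets ending in _x_at and 43.0% passed the array median. On 1 array alone the count of lysosomal genes ranged from 23 (replicate 1) to 28 (replicate 2), against 31.6% and 49.9% of all genes on those arrays. The median log2 difference, -0.04, ranged from -0.30 after quantile normalization to 0.59 after median centring. The count over 2-fold higher on replicate 2, 2 genes, was 1 with the 95th-percentile floor, quantile normalization, log2(signal + 32) and averaging the probe sets that passed the floor, 4 with no floor and 10 with median centring. Of all genes above the floor, the shares were 16.1%, 8.63%, 13.7% and 9.91% in the settings with 1 lysosomal gene, in that order. With no floor 18.4% of all genes were over 2-fold higher on replicate 2, and with median centring 35.4% of those above the floor. The count over 2-fold higher on replicate 1, 3 genes, was 6 with no floor, 1 (Psap) with median centring and 5 with the mean over all probe sets. The matching shares of all genes were 33.3%, 3.35% and 17.6%, the last 2 among those above the floor. Psap was over 2-fold higher on replicate 1 in each of these settings. The sign of Ppt1 turned to -0.75 when the probe sets that passed the floor were averaged, since the probe set with the highest mean was below the floor of replicate 1. No paired analysis was possible because both samples belong to 1 group. At signals near the floor, as for Gusb and Npc1, neither presence nor absence of a transcript can be told from these arrays.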
